A study of Mus musculus with 4 samples.

Results

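Out of 32285 genes listed in all 4 matrices, 7 were followed across the cell classes of mouse MC38b tumours: Pfn1, Magohb, Lars2, Gm15564, Cdk8, Rpgrip1 and Polr2l. They were chosen by symbol because earlier results of these same libraries showed them shifted between libraries in many cell types at once, so their library differences are given as a description and support nothing by themselves. Such a choice favours shifts that are alike over classes, so their likeness in size over classes is a description too. What the choice did not use was whether the shift follows the depth or the mitochondrial share of the cells. The tumours grew in mice from MC38b cells, MC38 being a mouse colon carcinoma line, and RNA of their single cells was counted on the 10x Genomics droplet platform. The 4 libraries came from 1 group given antibodies against PD-1 and TL1A (called the combination library), 1 group given the antibody against PD-1 alone, and 2 libraries of mice given saline (PBS 1 and PBS 2). PD-1 is an inhibitory receptor of T cells, and TL1A is a cytokine of the TNF family that acts on T cells and innate lymphoid cells. Tumours of every group were harvested 24 h after dose 2. Cells were sorted into CD45+CD3+, CD45+CD3− and CD45−CD3− gates and remixed at 9, 9 and 2 parts, with 20000 cells loaded per condition. The design text gives 4 animals for the treated group and 2 for saline, pooled before sorting, and leaves unsaid how the saline animals map to PBS 1 and PBS 2. Strain, sex and age of the mice are not given in the sources used here. Each treated arm has 1 library, so every comparison is between libraries. The p-values reflect how far these libraries vary, and that variation may be technical.

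The 7 genes belong to no single pathway. Pfn1 encodes profilin 1, which binds actin monomers and feeds them to growing filaments, and is abundant in leukocytes. Lars2 encodes the leucyl-tRNA synthetase of mitochondria, which charges tRNA for the translation of mitochondrially encoded proteins. Cdk8 encodes the kinase of the Mediator kinase module, which sits between transcription factors and RNA polymerase II, and Polr2l encodes a small subunit shared by the nuclear RNA polymerases. Magohb encodes a protein of the exon junction complex, which marks spliced mRNA, and is a close copy of Magoh. Rpgrip1 encodes a protein known from the connecting cilium of photoreceptors, where it binds RPGR. Gm15564 is an annotated noncoding antisense gene with no role given here.

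The genes lie on 7 different chromosomes in GENCODE M21 (GRCm38, the build that mm10 names): Pfn1 at chr11:70651850-70654644 (minus strand), Magohb at chr6:131284388-131293244 (minus), Lars2 at chr9:123366927-123462666 (plus), Gm15564 at chr16:35966752-35983230 (minus), Cdk8 at chr5:146231230-146302874 (plus), Rpgrip1 at chr14:52110704-52163546 (plus) and Polr2l at chr7:141471860-141475132 (minus). Sequence ties 2 of them together. A stretch of 52 bases is identical in the transcripts of Lars2 and Gm15564, and these 2 genes are its only holders among the GENCODE M21 transcripts. In Lars2 it lies in the 3′ UTR within exon 21 of 21, at chr9:123462048-123462099. In Gm15564 it lies between chr16:35981745 and chr16:35983052 and spans the junction of exons 1 and 2 of 4. That Gm15564 transcript has 402 bases, while the longest of the gene has 545. The start of the shared stretch is shown for both transcripts, 30 bases each, 5′ to 3′ on the transcript strand. A read lying wholly within the stretch would fit either gene, whereas a longer one would carry bases that differ. Reads and their lengths were not examined. Capitals mark the 22 bases that the windows have in common, and lower case marks the 8 bases before the shared stretch.
Lars2: gtgaagcaGAATTCACCAAGCGTTGGATTG
Gm15564: tctcacatGAATTCACCAAGCGTTGGATTG
Over 31-base stretches, the unit in which sharing was counted, Lars2 and Gm15564 had 22 in common, and no other pair of the 7 genes had any. None of the 7 shared a stretch with Gm42418, AY036118 or Gm26917, noncoding genes annotated at ribosomal RNA sequence. The search covered GENCODE M21 transcripts only, so sharing with ribosomal RNA sequence outside them was not tested. In the last 500 bases of the longest transcript, where 3′ reads would fall, Polr2l shared 91 of its 470 stretches with other genes (Gm26909 holding the most) and Magohb 94 of 470 (with Gm44958, which overlaps it on the same strand), so counts of both are uncertain. Gm15564 shared 2.13% there, and Pfn1, Lars2, Cdk8 and Rpgrip1 shared none. On the opposite strand Gm15564 overlaps Kpna1 and Parp9, and Rpgrip1 overlaps Supt16. Cdk8 overlaps Gm15739 on its own strand. Of these overlapping genes only Supt16 was followed.

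The combination, anti-PD-1, PBS 1 and PBS 2 libraries held 11177, 13231, 6732 and 6448 barcodes and 142600208, 82816801, 92495603 and 78648222 unique molecular identifiers (UMIs). The 10 cell classes with at least 50 cells in every library were compared. They held 8813, 7742, 5450 and 4637 cells of the same libraries. The named markers of each leukocyte class were found in it, every listed marker being over 10 CPM (UMIs of a gene per 1000000 UMIs) in every library for CD8 T cells, conventional CD4 T cells, regulatory T cells, NK cells, B cells, monocytes and macrophages, neutrophils and dendritic cells. The class called other T cells is Cd3e-positive, with less Cd8a in each of its clusters than in any CD8 T cell cluster. In the CD45-negative class the 5 stromal markers summed to 1968 to 3423 CPM in a library, whereas the 5 epithelial tumour markers were at or near 0, with sums of 0.176 to 0.541 CPM. The 3 markers of dividing cells (Mki67, Top2a and Stmn1) summed to 652 to 883 CPM there. These markers do not settle whether the class holds MC38b tumour cells, stromal cells or both. In the low-UMI clusters, which were left out of the classes, lay 3.91%, 26.5%, 6.25% and 14.8% of the kept cells of the combination, anti-PD-1, PBS 1 and PBS 2 libraries.

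Cell barcodes recurred between libraries. The anti-PD-1 library shared 1243 with PBS 1 and 1774 with PBS 2, and the PBS pair shared 673, whereas the combination library shared 39, 19 and 21 with the anti-PD-1, PBS 1 and PBS 2 libraries. In the pairs without the combination library, the smaller copy of a shared barcode had a median of 2.40%, 2.65% and 1.15% of the UMIs of the larger, and both copies fell under the same class name in 85.2%, 86.2% and 94.5% of cases. In the classes, 57, 153, 714 and 628 cells of the combination, anti-PD-1, PBS 1 and PBS 2 libraries carried such a barcode. Call counts, median differences, the joint fit, the depth division, the quartiles and the likeness of pairs are therefore also given without them.

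Pfn1 had the same order of libraries in all 10 classes, with the combination library highest, then PBS 1, then PBS 2, and the anti-PD-1 library lowest. In CD8 T cells it had 1363 CPM in the combination library, 421 CPM in the anti-PD-1 library, 801 CPM in PBS 1 and 607 CPM in PBS 2. In monocytes and macrophages the values were 1056, 335, 623 and 473 CPM in the same order of libraries. In CD45-negative cells they were 525, 156, 317 and 238 CPM. The combination library thus stood above both PBS libraries, and the anti-PD-1 library below both, in a T cell, a myeloid and a CD45-negative class alike. CPM here are edgeR values after TMM scaling within a class, and levels of different genes are not compared, since they are not per length.

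The log2 difference of Pfn1 between the combination and anti-PD-1 libraries ranged from 1.64 in NK cells to 2.16 in neutrophils, with a median of 1.69 over the 10 classes. In 9 of the 10 it passed the threshold of an adjusted p of 0.05 (edgeR quasi-likelihood test, Benjamini-Hochberg adjustment over all genes tested in a class), as did 1.51% of all gene and class pairs. Of the 4858 genes tested in every class, 0.515% were past it in at least 5 classes of this comparison, and nothing is read from Pfn1 being among them, since it was chosen from this contrast. For CD8 T cells the difference was 1.70 ± 0.20 (SE), with an adjusted p of 6.23e-09 by edgeR. Against PBS, the combination library had higher Pfn1 in all 10 classes, with a median of 0.91, and the call was made in 7 (1.85% of all pairs were called). The anti-PD-1 library had lower Pfn1 than PBS in all 10, with a median of −0.82, and the call was made in 5 (2.62% of all pairs were called). The PBS libraries also differed from each other in every class: PBS 1 exceeded PBS 2 by a median of 0.47 on the log2 scale, within a range of 0.40 to 0.80. Per cell the shift covered most of the distribution. From the lower to the upper quartile, CD8 T cells had 7.56 to 17.1 Pfn1 UMIs per 10000 in the combination library, against 1.37 to 5.45 in the anti-PD-1 library, 3.80 to 10.0 in PBS 1 and 2.94 to 7.92 in PBS 2. The lower quartile in the combination library exceeded the upper quartile in the anti-PD-1 library in 7 of the 10 classes, and in 6 of 9 without shared barcodes.

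**Figure D1:**
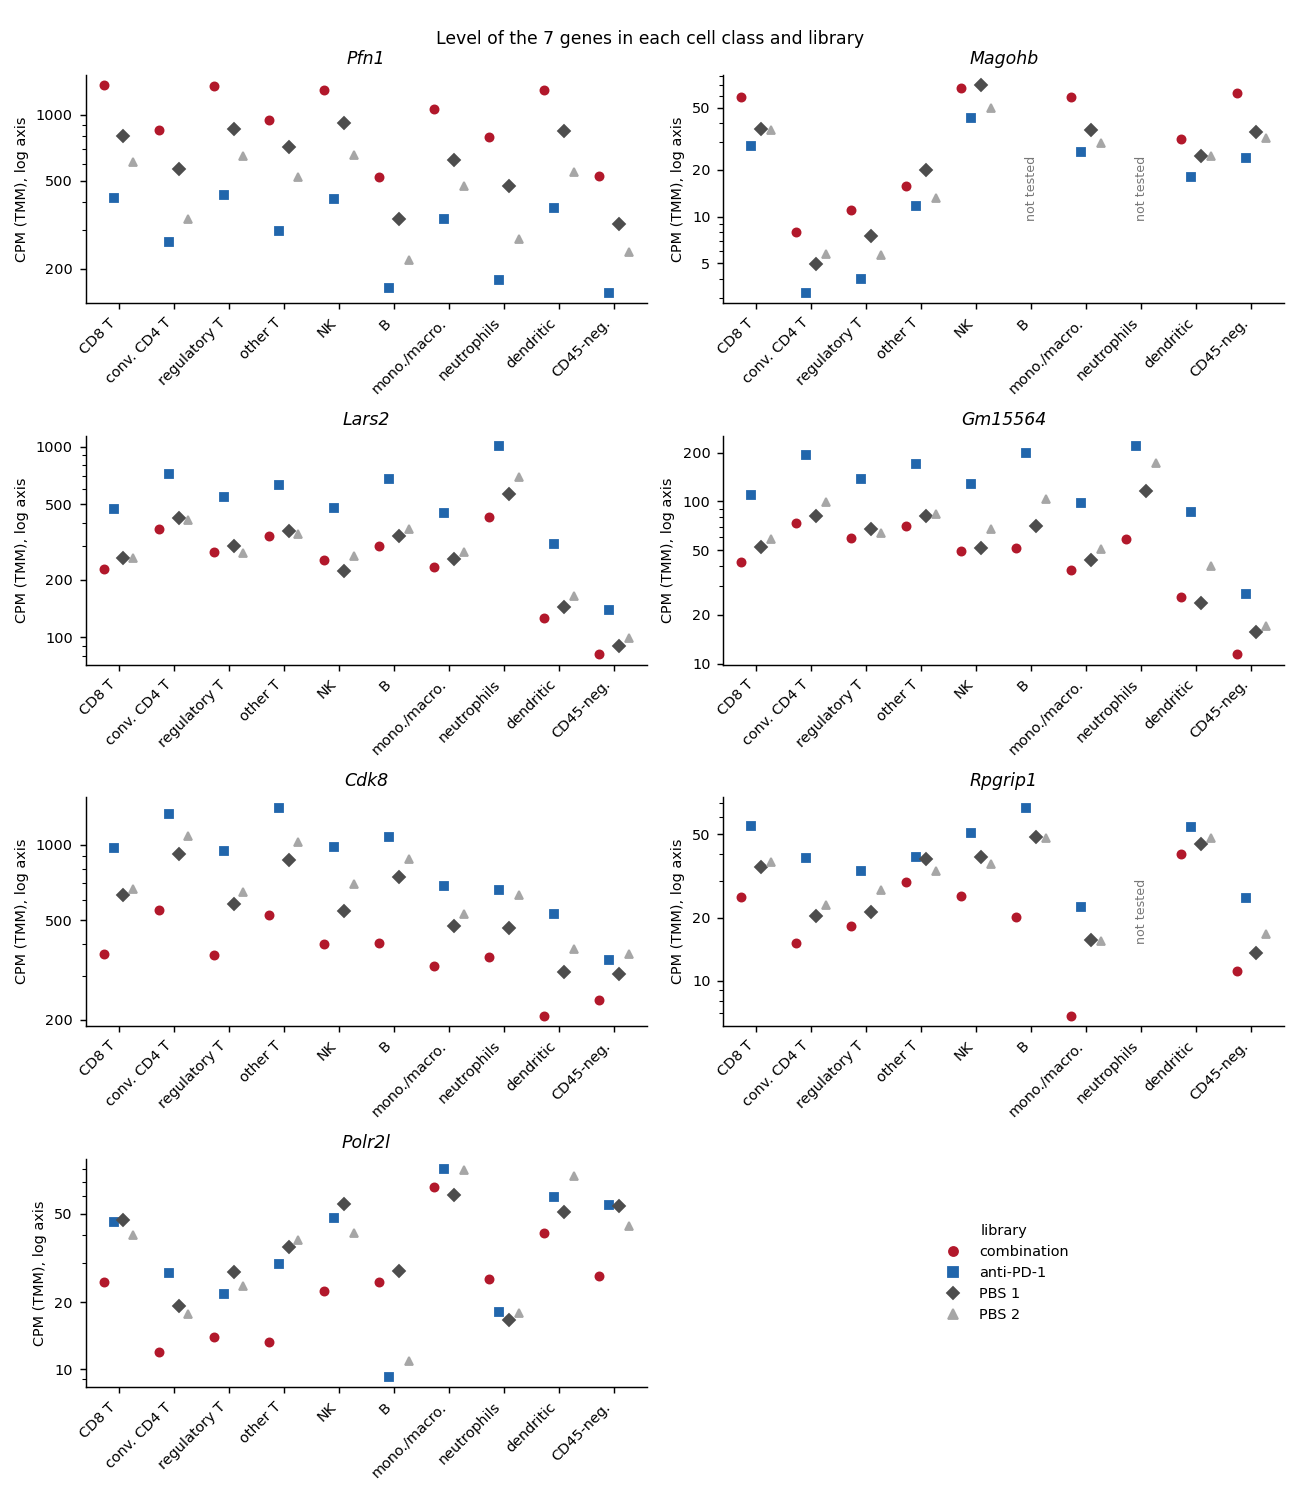
Level of each of the 7 genes (CPM after TMM scaling, log axis) in each cell class, with 1 point per library and no error bar because a point is the sum of the cells of a class in a library. Pfn1 has the same order of libraries in all 10 classes, Cdk8 is lowest in the combination library in all 10, and Polr2l of the combination library is above that of the anti-PD-1 library in B cells and neutrophils and below it in the other 8.

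Magohb, the exon junction protein, went the same way as Pfn1 between the treated libraries. CD8 T cells had 58.5 CPM of Magohb in the combination library, 28.3 CPM in the anti-PD-1 library, 36.7 CPM in PBS 1 and 36.0 CPM in PBS 2. The anti-PD-1 library lay below both PBS libraries in all 8 classes tested, and the combination library above both in 6 of 8. Magohb was not tested in B cells or neutrophils, where a library held at most 11 of its UMIs. The log2 difference between the combination and anti-PD-1 libraries was 0.43 in other T cells and up to 1.47 in regulatory T cells, and it was called in 4 of 8 classes. The CD8 T cell value was 1.05 ± 0.14 (SE; edgeR adjusted p of 2.84e-08). Against PBS the combination library differed little in NK cells and other T cells (0.15 and −0.09), and was called higher in 3 classes, CD8 T cells, monocytes and macrophages, and CD45-negative cells, at 0.69, 0.84 and 0.89.

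Lars2 and Gm15564, the 2 genes that share sequence, had the opposite direction. Lars2 in CD8 T cells had 228 CPM in the combination library, 471 CPM in the anti-PD-1 library, 262 CPM in PBS 1 and 261 CPM in PBS 2. The anti-PD-1 library stood alone here, while the combination library and the PBS pair were close together. The anti-PD-1 library exceeded both PBS libraries in all 10 classes for Lars2 and in all 10 for Gm15564. Gm15564 in CD8 T cells had 42.2 CPM in the combination library, 110.4 CPM in the anti-PD-1 library, 52.1 CPM in PBS 1 and 58.4 CPM in PBS 2. Among the classes of the anti-PD-1 library both genes were highest in neutrophils. There Lars2 had 429, 1005, 567 and 693 CPM and Gm15564 had 58.8, 219, 117 and 172 CPM in the combination, anti-PD-1, PBS 1 and PBS 2 libraries. Both were lowest in CD45-negative cells, in each of the 4 libraries.

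For Lars2 the anti-PD-1 library was above PBS by a median of 0.84 on the log2 scale, called higher in 9 of 10 classes. Gm15564 was above PBS by a median of 1.07 and called higher in 8. Of the genes tested in every class, 0.432% were called in at least 5 classes of anti-PD-1 against PBS. The combination library was below the anti-PD-1 library by a median of −0.96 for Lars2 and −1.39 for Gm15564, each called in 9 of 10 by edgeR. DESeq2 called Lars2 in 5 and Gm15564 in 1 of them. The CD8 T cell values of these differences were −1.05 ± 0.14 and −1.39 ± 0.12 (SE; edgeR adjusted p of 1.58e-08 and 1.45e-14). Against PBS, in contrast, Lars2 of the combination library was called in no class by edgeR, nor by DESeq2, with a median of −0.20 and a range from −0.55 in neutrophils to 0.06 in NK cells. No class had an unadjusted p under 0.05 there (0 of 10, edgeR), the CD8 T cell value being 0.0959. Gm15564 was called lower there in 2 classes, CD8 T cells and CD45-negative cells, at −0.39 and −0.51.

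Cdk8, the Mediator kinase, was lowest in the combination library in all 10 classes and highest in the anti-PD-1 library in 9. In CD8 T cells it had 365 CPM in the combination library, 968 CPM in the anti-PD-1 library, 627 CPM in PBS 1 and 666 CPM in PBS 2. Its treated libraries lay on either side of the PBS pair, as for Pfn1 but the other way round. In CD45-negative cells the libraries were closer, with 239.6, 347, 306 and 367 CPM in the combination, anti-PD-1, PBS 1 and PBS 2 libraries, and there PBS 2 was highest. The difference between the combination and anti-PD-1 libraries had a median of −1.32, from −1.42 in other T cells to −0.53 in CD45-negative cells, and was called in 8 classes. For CD8 T cells it was −1.41 ± 0.18 (SE; edgeR adjusted p of 7.34e-09). Against PBS the combination library was called lower in 7 classes, with a median of −0.75, and the anti-PD-1 library higher in 3, with a median of 0.51. PBS 2 exceeded PBS 1 in all 10 classes for Cdk8, the difference (PBS 1 over PBS 2) having a median of −0.24.

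Rpgrip1 and Polr2l varied more over classes than the other 5 genes in the difference between the treated libraries. Rpgrip1 in CD8 T cells had 25.1 CPM in the combination library, 54.4 CPM in the anti-PD-1 library, 34.8 CPM in PBS 1 and 36.7 CPM in PBS 2. In all 9 classes tested the anti-PD-1 library was above both PBS libraries and the combination library below both. Cdk8 had that order too, except in CD45-negative cells, where PBS 2 was above the anti-PD-1 library. Rpgrip1 was not tested in neutrophils, where a library held at most 8 UMIs. The difference between the combination and anti-PD-1 libraries was called in 4 classes and ranged from −1.72 in monocytes and macrophages to −0.40 in other T cells. The value for CD8 T cells was −1.12 ± 0.14 (SE; edgeR adjusted p of 5.06e-09). Rpgrip1 overlaps Supt16, on the opposite strand, and Supt16 was called in none of the 10 classes of any comparison by edgeR or DESeq2 (0, 4 and 1 classes at an unadjusted edgeR p under 0.05), with medians of 0.09, −0.21 and −0.13 for combination against anti-PD-1, anti-PD-1 against PBS and combination against PBS.

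Polr2l, the shared polymerase subunit, was the only one of the 7 whose difference between the combination and anti-PD-1 libraries did not have 1 sign over the classes tested. The classes of the other sign, B cells and neutrophils, had unadjusted edgeR p-values of 0.179 and 0.579. CD8 T cells had 24.6 CPM of Polr2l in the combination library, 46.1 CPM in the anti-PD-1 library, 47.0 CPM in PBS 1 and 40.0 CPM in PBS 2, so the combination library alone was apart. The combination library was below both PBS libraries in 7 of 10 classes and was called lower than PBS in 4, among them CD8 T cells at −0.82 ± 0.12 (SE; edgeR adjusted p of 1.19e-06). The anti-PD-1 library differed from PBS by a median of 0.02, called in no class by edgeR or by DESeq2 and under an unadjusted p of 0.05 in 0 of 10, with 5 classes above 0 and 5 below. In B cells the combination library had 24.6 CPM and the anti-PD-1 library 9.21 CPM, a log2 difference of 1.40 ± 1.04 (SE) that rests on 11 and 4 UMIs, and in neutrophils the difference was 0.49 ± 0.87 (SE). In monocytes and macrophages the 4 libraries were close, with 66.1, 79.6, 61.0 and 78.9 CPM in the combination, anti-PD-1, PBS 1 and PBS 2 libraries. Between the combination and anti-PD-1 libraries, 6 of the 7 thus had 1 direction in all classes where they were tested, and Polr2l was lower in 8 of 10. The genes were chosen for shifts in many cell types, so this only describes the choice. Of the 4858 genes tested in every class, 19.2% had 1 direction in all 10 classes of this comparison.

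Over the 70 pairs of a gene and a class, 67 passed the filter on low counts. Between the combination and anti-PD-1 libraries 47 of the 67 were called, 13 higher and 34 lower, against 1.51% of all 114718 gene and class pairs (0.812% higher and 0.694% lower). Between anti-PD-1 and PBS 28 were called, 22 higher and 6 lower, against 2.62% of all pairs (1.48% higher and 1.14% lower). Between the combination library and PBS 26 were called, 10 higher and 16 lower, against 1.85% of all pairs (0.984% higher and 0.871% lower). In CD8 T cells 7, 5 and 6 of the 7 genes were called for combination against anti-PD-1, anti-PD-1 against PBS and combination against PBS, against 3.09%, 6.08% and 4.66% of all genes tested in that class. The members were chosen from these contrasts and the comparisons share libraries, so the counts are descriptions. DESeq2 called fewer pairs, 23, 11 and 5 of 67, and no Pfn1 difference against PBS. Between the treated libraries it called Pfn1 in 6 classes, Magohb in 2, Lars2 in 5, Cdk8 in 7, and Gm15564, Rpgrip1 and Polr2l in 1 each. For anti-PD-1 against PBS it called Lars2 in 6, Gm15564 in 3 and Cdk8 in 2, and for combination against PBS it called Cdk8 in 3, and Polr2l and Magohb in 1 each. Without any barcode found in more than 1 library, the counts were 35, 20 and 18 of 60 pairs in 9 classes, CD45-negative cells dropping out with 5 and 2 cells left in PBS 1 and PBS 2. With only the smaller copy of each such barcode left out they were 42, 27 and 24 of 67. The median differences between the combination and anti-PD-1 libraries without shared barcodes were 1.68 for Pfn1, −0.96 for Lars2, −1.32 for Cdk8, −1.40 for Gm15564, −1.06 for Rpgrip1, −0.66 for Polr2l and 1.03 for Magohb. Against PBS the medians of the anti-PD-1 library were then −0.79 for Pfn1, 0.78 for Lars2, 0.95 for Gm15564, 0.54 for Rpgrip1, 0.02 for Polr2l and −0.35 for Magohb. Those of the combination library were 0.92 for Pfn1, −0.24 for Lars2, −0.88 for Cdk8, −0.56 for Gm15564, −0.46 for Rpgrip1, −0.62 for Polr2l and 0.56 for Magohb, Gm15564 having been at −0.33 over all cells and Lars2 now being called lower in 1 class. For anti-PD-1 against PBS, Cdk8 was then called in 0 of 9 classes by edgeR (5 at an unadjusted p under 0.05), with a median of 0.41 instead of 0.51.

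**Figure D2:**
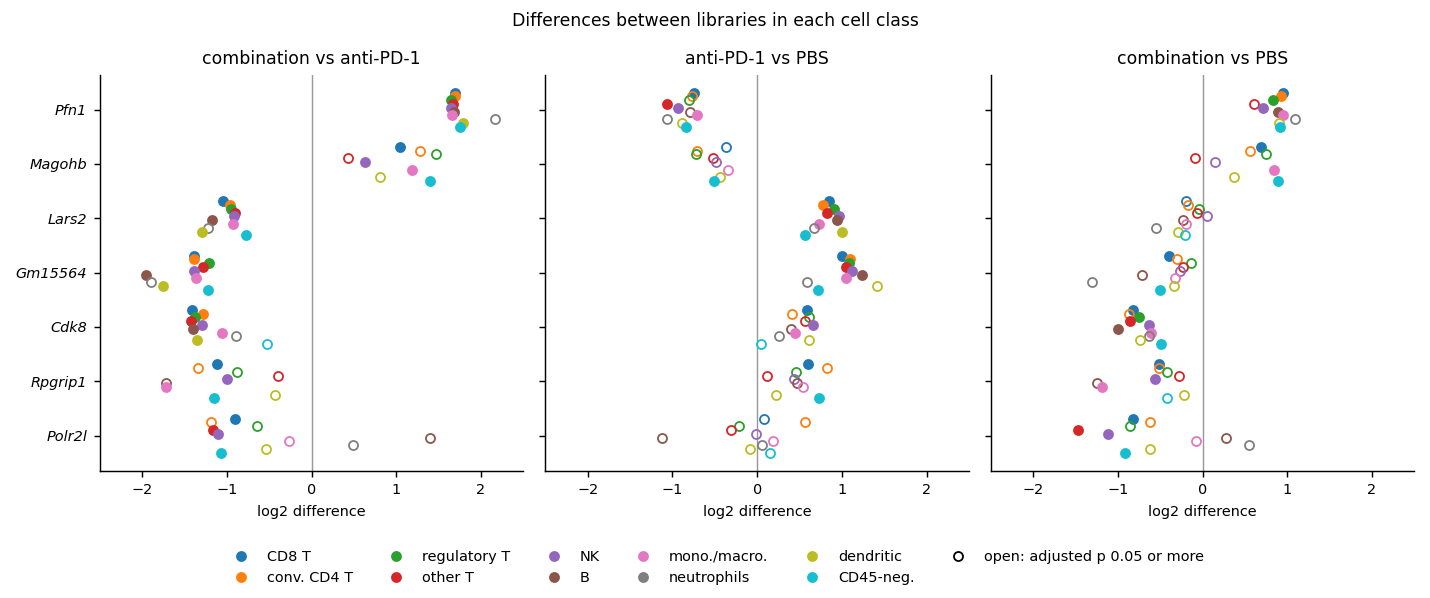
Log2 difference between libraries for each of the 7 genes, with 1 point per cell class, filled where the edgeR adjusted p is under 0.05 and open where it is not. In the comparison of the combination with the anti-PD-1 library the 10 Pfn1 points lie between 1.64 and 2.16, while those of Polr2l spread from −1.19 to 1.40.

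Whether the difference had the same size in every class was tested in a joint fit over all classes, with a term for each class and group. Genes chosen for shifts in many cell types at once favour a like size, so this fit is not independent of the choice. None of the 7 genes passed an adjusted p of 0.05 in any of the 3 comparisons (edgeR, Benjamini-Hochberg over 16969 genes). At an unadjusted p under 0.05 stood 2 of them for combination against anti-PD-1, 1 for anti-PD-1 against PBS and 2 for combination against PBS. For combination against anti-PD-1 no gene at all passed (0.0% called), while 2.02% of genes had an unadjusted p under 0.05, so a missed threshold does not show that sizes were alike. In the other comparisons 0.0589% (anti-PD-1 against PBS) and 0.943% (combination against PBS) of genes passed, and 5.55% and 9.6% had an unadjusted p under 0.05. The lowest adjusted p-values among the 7 were those of Cdk8 between the combination and anti-PD-1 libraries (adjusted p of 0.214, unadjusted 7.56e-05, edgeR) and of Magohb between the combination library and PBS (adjusted p of 0.158, unadjusted 0.00383, edgeR). Pfn1 had unadjusted p-values of 0.688, 0.451 and 0.173 for combination against anti-PD-1, anti-PD-1 against PBS and combination against PBS, and Lars2 had 0.381, 0.254 and 0.155 (edgeR). Without a filter on low counts Cdk8 passed for combination against anti-PD-1 (adjusted p of 0.000795, edgeR), and Polr2l and Magohb passed for combination against PBS (adjusted p of 7.89e-06 and 0.0151, edgeR). Without shared barcodes 0 of the 7 passed in any comparison (edgeR; 1, 0 and 2 of them at an unadjusted p under 0.05 for combination against anti-PD-1, anti-PD-1 against PBS and combination against PBS). The spread of the log2 difference over classes between the combination and anti-PD-1 libraries was 0.16 (SD) for Pfn1 and for Lars2, 0.28 for Gm15564 and 0.29 for Cdk8, against 0.48 for Rpgrip1 and 0.84 for Polr2l. A shared direction over classes was not rare: 19.2% of the 4858 genes tested in every class had 1 sign in all 10 classes of combination against anti-PD-1, as did 16.0% for anti-PD-1 against PBS and 6.59% for combination against PBS.

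The treated libraries had the same places in the order of depth in every class. The PBS libraries did not: PBS 2 was deeper than PBS 1 in CD8 T cells, but in NK cells PBS 1 had a median of 7795 UMIs per cell and PBS 2 of 7585.5. The anti-PD-1 library had the lowest median UMIs per cell in all 10 classes, and the combination library lay above it but below both PBS libraries in all 10. CD8 T cells had medians of 8521, 6045, 8946.5 and 10517 UMIs per cell in the combination, anti-PD-1, PBS 1 and PBS 2 libraries. Pfn1 was highest in the combination library and lowest in the anti-PD-1 library, the shallowest. The part of depth in its differences between libraries was not tested. The median mitochondrial share of CD8 T cells was 3.02%, 2.88%, 3.10% and 2.78% in the same libraries.

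Within a library the genes differed between shallower and deeper cells of the same class, cells being divided at the median UMI count of their class and library. The deeper cells held a median of 2.26, 2.12, 1.97 and 2.02 times the UMIs of the shallower cells in the combination, anti-PD-1, PBS 1 and PBS 2 libraries. Pfn1 was lower in the shallower cells in 36 of 40 pairs of class and library, by a median of −0.28 on the log2 scale. Lars2 was higher in them in 38 of 40 (median 0.42), Cdk8 in 37 of 40 (median 0.42) and Gm15564 in 37 of the 39 pairs with at least 10 UMIs on each side (median 0.77). Magohb was lower in the shallower cells in 20 of 23 pairs (median −0.65). For each of these 5 genes the sign in shallower cells was that of the anti-PD-1 library, the shallowest, against PBS. The combination library was also shallower than both PBS libraries in all 10 classes, and there the signs were opposite: against PBS its medians were 0.91 for Pfn1, 0.63 for Magohb, −0.20 for Lars2, −0.33 for Gm15564 and −0.75 for Cdk8. Rpgrip1 was lower in the shallower cells in 21 of 34 pairs (median −0.25), and Polr2l in 21 of 32 (median −0.44). Depth also differed between the clusters of a class, so the shallower and deeper cells were partly different clusters. Among CD8 T cell clusters the median ran from 4673 UMIs in the shallowest to 19206 in the deepest, which was led by genes of dividing cells such as Top2a and Mki67, and among NK cell clusters from 3003 to 21522. When cells were divided at the median of their own cluster and library instead, the medians were −0.13 for Pfn1 (lower in 34 of 40 pairs), −0.25 for Magohb, 0.42 for Lars2, 0.53 for Gm15564, 0.39 for Cdk8 and −0.29 for Polr2l. Rpgrip1 turned to 0.09 and was higher in the shallower cells in 22 of 34 pairs. Without shared barcodes the medians of the division by class were −0.24 for Pfn1, −0.59 for Magohb, 0.38 for Lars2, 0.64 for Gm15564, 0.33 for Cdk8, −0.13 for Rpgrip1 and −0.36 for Polr2l. Dividing cells at the median mitochondrial share gave medians nearer to 0 for Pfn1 (−0.05), Lars2 (0.08), Cdk8 (0.14) and Gm15564 (0.06). Magohb had −0.21, Polr2l −0.03 and Rpgrip1 0.25. Single pairs lay farther out in both directions, from −0.64 to 1.02 for Lars2 and from −0.43 to 1.10 for Gm15564. Cdk8 was higher in the cells of higher share in 32 of 40 pairs. Cells are not replicates, so these values carry no test.

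**Figure D3:**
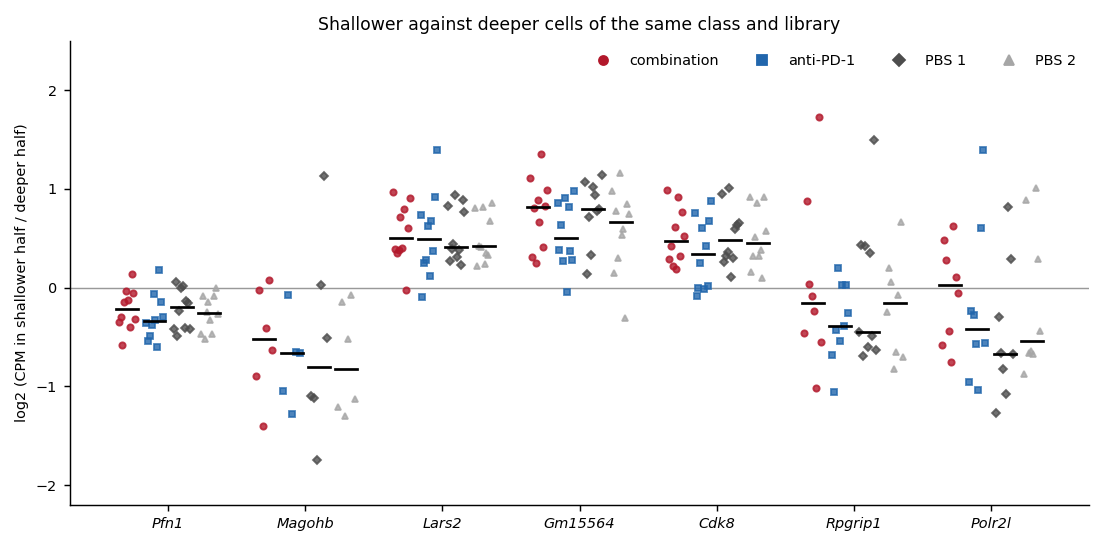
Log2 ratio of the CPM in cells under the median UMI count of their class and library to the CPM in the cells above it, with 1 point per class, colours for libraries and black bars for the median over classes. Lars2, Gm15564 and Cdk8 lie mostly above 0 in all 4 libraries, and Pfn1 and Magohb mostly below it.

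The range of depth was then narrowed by keeping only cells with 3000 to 10000 UMIs, which left 7 classes with at least 50 cells in every library. The median differences between the combination and anti-PD-1 libraries were then 1.60 for Pfn1, 1.10 for Magohb, −0.84 for Lars2, −1.22 for Gm15564, −1.31 for Cdk8, −1.32 for Rpgrip1 and −1.12 for Polr2l, and 35 of 47 pairs were called by edgeR. The differences of Pfn1, Lars2, Cdk8 and Gm15564 between these libraries kept their directions in this window. The libraries may still differ in depth inside it, which was not compared. Between anti-PD-1 and PBS the medians were −0.66 for Pfn1, 0.67 for Lars2, 0.38 for Cdk8, 0.84 for Gm15564 and −0.10 for Magohb, each nearer to 0 than over all cells and 10 classes, and 16 of 47 pairs were called. Rpgrip1 and Polr2l were farther from 0, at 0.66 and 0.19. Between the combination library and PBS the medians were 0.92 for Pfn1, 0.67 for Magohb, −0.89 for Cdk8 and −0.64 for Rpgrip1. These were each farther from 0 than over all cells, that of Pfn1 only slightly. Those of Lars2, Gm15564 and Polr2l were nearer to 0, at −0.18, −0.31 and −0.67, and 14 of 47 pairs were called. In this window the difference of Polr2l between the treated libraries was below 0 in all 6 classes tested, the nearest to 0 being −0.16. Thinning the class sums to equal totals left 48, 31 and 27 of 66 pairs called for combination against anti-PD-1, anti-PD-1 against PBS and combination against PBS. The thinning draws at random from the sums and leaves the depth of single cells as it was, so it does not bear on that depth. Treatment and library cannot be told apart here, since each treated arm is 1 library.

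The low-UMI clusters gave a second view of shallow barcodes. They held 389, 3062, 389 and 884 cells of the combination, anti-PD-1, PBS 1 and PBS 2 libraries, in different proportions of classes, and 0.514%, 53.1%, 57.3% and 81.1% of these barcodes also occurred in another library. Over the cells in classes, Cdk8 had 339, 768, 495 and 635 CPM by plain library totals in the combination, anti-PD-1, PBS 1 and PBS 2 libraries, and in the low-UMI clusters it had 764, 761, 899.8 and 942 CPM. Its spread over libraries, highest over lowest, was 2.27-fold in the classes and 1.24-fold in the low-UMI clusters. Gm15564 spread 2.65-fold in the classes, and in the low-UMI clusters its 94.9, 99.6, 91.1 and 89.5 CPM spread 1.11-fold. In the anti-PD-1 library both genes had about the level in classes that they had in low-UMI clusters, whereas the other 3 libraries had lower levels in classes. Lars2 had 197, 390.3, 207 and 252 CPM in the classes and 634, 446, 567 and 488 CPM in the low-UMI clusters, where the anti-PD-1 library was lowest. Pfn1 kept its gap between the treated libraries in the low-UMI clusters, with 1053 CPM in the combination library, 365 CPM in the anti-PD-1 library, 630.2 CPM in PBS 1 and 306 CPM in PBS 2.

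**Figure D4:**
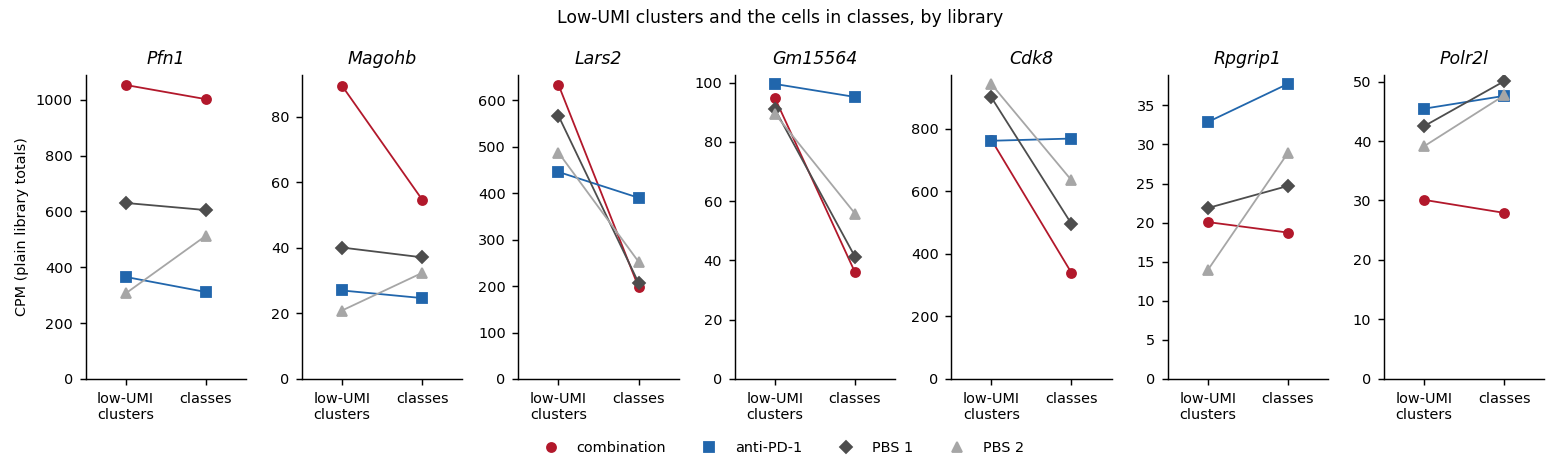
CPM by plain library totals of each of the 7 genes in the low-UMI clusters and in the cells of the 10 classes, with 1 line per library and axes that start at 0. For Gm15564 and Cdk8 the 4 libraries lie close together in the low-UMI clusters and apart in the classes, whereas Pfn1 of the combination library is at 1053 and 1002 CPM.

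Partners of the 7 genes in their own pathways were counted against the share of all gene and class pairs called, which was 1.51% for combination against anti-PD-1, 2.62% for anti-PD-1 against PBS and 1.85% for combination against PBS. A count of 0 in a short list is near these shares. Of 24 tested genes of actin and actin binding, over 233 gene and class pairs, 2 pairs were called higher and 2 lower in the combination against the anti-PD-1 library, and the median difference was 0.02, against −0.00 over all genes and classes. Between anti-PD-1 and PBS 5 pairs of this list were higher and 1 lower, and for combination against PBS 1 pair was higher and 2 were lower. Actb, the cytoplasmic actin to whose monomers profilin binds, was called in no class of any comparison by edgeR (0, 1 and 0 classes at an unadjusted p under 0.05), and by DESeq2 in 1 class of anti-PD-1 against PBS. It was lower in the combination than in the anti-PD-1 library in all 10 classes (median −0.37), opposite in sign to Pfn1. Pfn2, the profilin of neurons, was tested in 3 classes only. It was called lower by edgeR in 1 of them in each comparison against PBS, and in 0 between the treated libraries. Among the other 6 genes of the Mediator kinase module no pair of 59 was called between the treated libraries by edgeR or DESeq2, 14 having an unadjusted edgeR p under 0.05, and the list had a median of 0.18. Against PBS, edgeR called 1 pair of this list higher in the anti-PD-1 library and 1 higher in the combination library. Cdk19, the paralogue of Cdk8, had a median of 0.21 between the treated libraries. Among 16 other mitochondrial aminoacyl-tRNA synthetases no pair of 128 was called in any of the 3 comparisons by edgeR or DESeq2, with 6, 14 and 6 at an unadjusted edgeR p under 0.05. Among 10 genes of the RPGR-RPGRIP1 ciliary complex no pair of 67 was called by either tool, with 3, 5 and 5 at an unadjusted edgeR p under 0.05.

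Of the other 12 genes of the exon junction complex, 1 pair of 118 was called higher in the combination against the anti-PD-1 library, and Magoh, the paralogue of Magohb, had a median of 0.23 and was called in no class (edgeR and DESeq2; 0 at an unadjusted p under 0.05). Against PBS 0 pairs of this list were called in the anti-PD-1 library (edgeR and DESeq2; 5 at an unadjusted edgeR p under 0.05) and 2 were called lower in the combination library. Of 12 other RNA polymerase II subunits, 2 pairs of 118 were called higher and 4 lower between the treated libraries, 9 higher and 3 lower in anti-PD-1 against PBS, and 3 higher and 0 lower in combination against PBS. The 12 calls among 118 pairs in anti-PD-1 against PBS stand beside 2.62% of all pairs. All 4 lower calls between the treated libraries were of Polr2i, whose median was −0.57, while Polr2h was higher in all 9 classes tested (median 0.72, called in 1). Of 13 mitochondrially encoded mRNAs, mt-Nd6, a subunit of respiratory complex I, was called higher in the combination against the anti-PD-1 library in 6 classes (median 0.90) and lower in anti-PD-1 against PBS in 8 (median −0.84). Over all 13, with 130 pairs, 6 were called higher and 0 lower between the treated libraries, 0 higher and 13 lower in anti-PD-1 against PBS, and 0 higher and 7 lower in combination against PBS. Over all gene and class pairs 0.812% were called higher and 0.694% lower between the treated libraries, 1.48% and 1.14% in anti-PD-1 against PBS, and 0.984% and 0.871% in combination against PBS. Of 20 genes linked to cell dissociation and handling, 25 of 197 pairs were called higher and none lower in the combination against the anti-PD-1 library, with a median of 0.20. Against PBS, 1 was called higher and 18 lower in the anti-PD-1 library, and 23 higher and 6 lower in the combination library. Zfp36, which binds and destabilises mRNA, was called higher in 9 of 10 classes between the treated libraries (median 1.26) and Btg2, an antiproliferative gene, in 8 (median 1.10). Zfp36 in CD8 T cells had 89.5 CPM in the combination library, 39.6 CPM in the anti-PD-1 library, 62.9 CPM in PBS 1 and 53.4 CPM in PBS 2. Those values have the order of libraries that Pfn1 had, and the part of cell handling in the values of the 7 genes was not tested.

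Of 7 ribosomal and nuclear noncoding RNAs, over 69 pairs, 0 were called higher and 6 lower between the treated libraries, 7 higher and 1 lower in anti-PD-1 against PBS, and 1 higher and 4 lower in combination against PBS, beside 1.51%, 2.62% and 1.85% of all pairs called in either direction. AY036118, annotated at ribosomal sequence, had the signs of Lars2. CD8 T cells had 654 CPM of AY036118 in the combination library, 1299.8 CPM in the anti-PD-1 library, 864 CPM in PBS 1 and 806 CPM in PBS 2. It was called lower in the combination against the anti-PD-1 library in 5 classes (median −0.98) and higher in anti-PD-1 against PBS in 5 (median 0.77). Gm42418 had the same signs in all 10 classes (medians −0.72 and 0.71) and was called in 0 and 1 class by edgeR (4 and 6 at an unadjusted p under 0.05), and in 4 and 6 by DESeq2. Gm26917 had medians of −0.20 and 0.07, and Malat1, a nuclear noncoding RNA, had 0.17 and −0.19. Of 14 housekeeping genes, 4 of 138 pairs were called higher and none lower between the treated libraries, beside 0.812% and 0.694% of all pairs, all 4 of Hprt, a purine salvage enzyme (median 0.68). Against PBS, 2 pairs of this list were higher and 2 lower in the anti-PD-1 library, and 2 higher and none lower in the combination library. Gapdh, a glycolytic enzyme, was lower in the combination than in the anti-PD-1 library in all 10 classes (median −0.37), called in none by edgeR or DESeq2 (2 at an unadjusted p under 0.05).

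Likeness of pattern was measured by the Pearson correlation of log2(CPM + 1), after subtracting the mean of each class, over the 40 points of class and library, among the 4858 genes tested in every class. The 40 points come from only 4 libraries, so the values describe these libraries and have no p. Nearest to Lars2 were Gm15564 (r = 0.97), Gm42418 (0.95) and AY036118 (0.95). Nearest to Gm15564 were Lars2 (0.97), Cmss1 (0.91) and Sod1 (0.90). Cdk8 was nearest to Gm11808 (0.91), E530011L22Rik (0.90) and Cmss1 (0.89), and Pfn1 to Cebpb (0.95), Btf3 (0.93) and Gnb2 (0.92). Cebpb, a transcription factor of myeloid cells, had 2555 CPM in neutrophils of the combination library, 693 CPM in those of the anti-PD-1 library, 1735 CPM in PBS 1 and 1212 CPM in PBS 2. Its median difference between the combination and anti-PD-1 libraries was 2.00, called in 5 classes. Polr2l had weaker neighbours, Ndufc1 (0.74), Cct5 (0.64) and Eif3c (0.63). Magohb and Rpgrip1 were not tested in every class and were not ranked. Pfn1 ran against Cdk8 (r = −0.95), Gm15564 (−0.91) and Lars2 (−0.87). From plain totals without shared barcodes, over 36 points, the r was 0.97 for Lars2 with Gm15564 and −0.94 for Pfn1 with Cdk8. Within a library, over its 10 classes, Lars2 and Gm15564 had r of 0.85, 0.90, 0.61 and 0.89 in the combination, anti-PD-1, PBS 1 and PBS 2 libraries. In the same order Lars2 had r of 0.29, 0.70, 0.41 and 0.34 with AY036118. With Gm42418 it had 0.73, 0.85, 0.75 and 0.60. Pfn1 and Cdk8 had 0.37, 0.21, −0.51 and −0.58 in the same libraries, over 10 classes each and with no test.

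**Figure D5:**
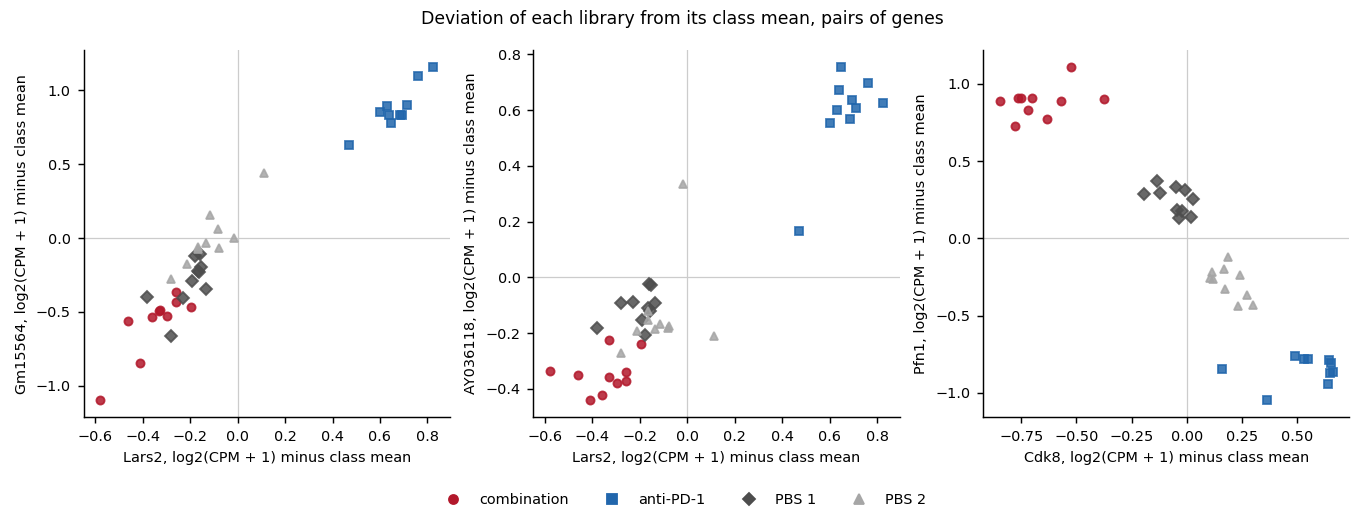
Deviation of log2(CPM + 1) from the mean of each class, for Gm15564 against Lars2, AY036118 against Lars2 and Pfn1 against Cdk8, with 1 point per class and library and colours for libraries. The points group by library: the anti-PD-1 library lies at the upper right in the first 2 panels, and Pfn1 against Cdk8 runs from the combination library at the upper left to the anti-PD-1 library at the lower right.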

How the data were processed

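Per the file headers the values are whole numbers, and the deposited matrices were used as raw UMI counts of genes in barcodes that the authors had already called as cells. Cell Ranger 3.0.2 and mm10 are named in the submitters' processing notes. The matrix headers name version 7.1.0 of that software. The counting of introns is not given in the sources. The 7 genes, the gene lists, the classes and the alternatives were chosen with earlier results of these data known. A barcode was kept when it had 200 or more genes and a mitochondrial share below 15%. Scrublet's own threshold marked no more than 0.0304% of the cells in a library; in its place the highest scores were removed at 0.8% per 1000 barcodes (952, 1329, 346 and 316 cells of the combination, anti-PD-1, PBS 1 and PBS 2 libraries). Cells were clustered with scanpy 1.11.5 (Leiden, igraph 0.11.9, 2000 variable genes without the 7 members), clusters were named from marker lists with thresholds set after seeing the data, and clusters of low UMIs or mixed lineage were left out. Class sums of the counts in each library were fitted with edgeR 4.0.16 (R 4.3.3): TMM, filterByExpr with a minimum of 10, a robust quasi-likelihood model with group as its factor over the 4 libraries, Benjamini-Hochberg adjustment per class and comparison. Only the PBS pair is replicated, so the fit gives the treated libraries the variation of that pair. The biological coefficient of variation was 8.39% to 15.7% in 9 classes and 26.5% in neutrophils, where edgeR and DESeq2 called no gene between the treated libraries (142 at an unadjusted edgeR p under 0.05). Differences between classes came from a joint edgeR fit with library, class and class by group terms, TMM within class. The scripts were tested on simulated data. Named genes were the 7 members, the 3 genes most like each, up to 3 genes per list called in most classes, and a fixed set (Gm42418, AY036118, Gm26917, Pfn2, Magoh, Cdk19, Actb, Malat1); Supt16 was added for its overlap. Alternatives were DESeq2 1.42.0, plain totals, no filter, kept low-UMI clusters, thinned sums, a UMI window, kept doublets, each PBS library left out and, chosen after seeing the data, shared barcodes left out and the depth division made within clusters.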

Additional observations from a re-analysis of the deposited data

Results flagged for a closer look

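The low-UMI clusters, which the class comparisons left out and 1 alternative kept, held 7 values of a treated library above both PBS libraries, all in CPM by plain library totals. In the combination library Pfn1 had 1053 (PBS 1 and PBS 2: 630.2 and 306), Lars2 634 (567 and 488), Gm15564 94.9 (91.1 and 89.5) and Magohb 89.4 (40.1 and 20.9). In the anti-PD-1 library Gm15564 had 99.6 (91.1 and 89.5), Rpgrip1 32.9 (21.9 and 13.9) and Polr2l 45.4 (42.5 and 39.1). The Gm15564 values rest on 104, 491, 75 and 103 UMIs in the combination, anti-PD-1, PBS 1 and PBS 2 libraries, and the Rpgrip1 values of the PBS libraries on 18 and 16 UMIs. Clusters of different classes make up these cells in each library, and no difference among them was tested.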

How the results depend on the processing

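Between the combination and anti-PD-1 libraries, DESeq2 called 23 of the 67 pairs of gene and class, where edgeR called 47. For anti-PD-1 against PBS it called 11, where edgeR called 28, and for combination against PBS 5, where edgeR called 26. Over all 114718 pairs DESeq2 called 236, 392 and 190 in these comparisons, where edgeR called 1728, 3009 and 2128. Without shared barcodes edgeR called 745, 1876 and 2067 of 97558 pairs in 9 classes, and differences between classes in 4, 65 and 350 of 15339 genes, against 0, 10 and 160 of 16969. In cells with 3000 to 10000 UMIs, 16 pairs (anti-PD-1 against PBS) and 14 pairs (combination against PBS) of 47 in 7 classes were called, fewer pairs having been tested. Plain totals, no filter, kept low-UMI clusters, thinned sums, kept doublets and both settings without shared barcodes moved no count of called pairs by more than 1.5 times. Without a filter on low counts, differences between classes were called for 1 gene of the 7 (combination against anti-PD-1) and for 2 (combination against PBS), against 0 with it. Dividing cells within clusters turned the depth split of Rpgrip1 to 0.09, against −0.25 within classes. The median log2 difference over classes changed sign under no alternative but for Polr2l between anti-PD-1 and PBS, which ranged from −0.05 to 0.19. With PBS 1 left out, the median Pfn1 difference was −0.56 for anti-PD-1 against PBS and 1.16 for combination against PBS, and with PBS 2 left out −1.07 and 0.64. These fits have no residual degrees of freedom and give no test. No paired analysis was possible because the treated groups have 1 library each and share fewer than 2 replicate numbers with PBS. The treated libraries cannot be left out, being the only ones of their arms.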
